A study of Mus musculus with 9 samples.

Results

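Cochleae of mice at postnatal day 3 were profiled by RNA-seq, and 6 genes of the mechanotransduction channel complex were followed: Tmc1, Tmc2, Tmie, Lhfpl5, Cib2 and Tomt. They were chosen by symbol and found through their Ensembl identifiers among the 51912 genes of the HET and WT libraries. All 6 were also among the 1137 genes listed in each HOM library. The groups hold 3 libraries each and are named by the sample titles: Pou4f3(Δ/Δ), called HOM here, Pou4f3(Δ/+), called HET, and Pou4f3(+/+), called WT. Δ marks the mutant allele. Its extent, the strain, the sex and any pooling of animals were not stated in the labels read here. The design text names the Pou4f3(Δ/+) mice and their WT littermates. The genotype field disagrees with the title in all 9 samples: it reads HET where the title reads HOM, WT where it reads HET, and HOM where it reads WT. Every direction below therefore depends on the titles. Values are FPKM, fragments scaled to gene length and library depth.

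Pou4f3 encodes a POU-domain transcription factor that hair cells need to mature and survive. These sensory cells carry a bundle of stereocilia whose tips are joined by tip links, and tension on a tip link opens the mechanotransduction channel at its lower end. TMC1 and TMC2 form the pore of that channel, and in the mouse cochlea Tmc2 is the earlier and Tmc1 the later of the pair. TMIE and LHFPL5 are membrane proteins that bind the pore and couple it to the tip link, CIB2 is a calcium-binding subunit on the inner face, and TOMT is a protein of the secretory pathway needed for TMC proteins to reach the bundle.

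The genes lie on 5 chromosomes (GRCm38, GENCODE M21). Tmc1 (ENSMUSG00000024749) spans chr19:20783458-20954202 on the - strand and Tmc2 (ENSMUSG00000060332) chr2:130195194-130264445 on the + strand. Lhfpl5 (ENSMUSG00000062252) spans chr17:28575641-28585679 on the + strand and Tmie (ENSMUSG00000049555) chr9:110865711-110880113 on the - strand. Cib2 (ENSMUSG00000037493) spans chr9:54544794-54560218 and Tomt (ENSMUSG00000078630) chr7:101898370-101906359, both on the - strand. Tomt shares 1981 of its 2857 exonic bases (69.3%) with Anapc15 on the opposite strand, Cib2 shares 227 of 1433 (15.8%) with Sh2d7, and Tmie shares 244 of 3094 (7.89%) with Als2cl. The labels do not say whether counting used strand, so reads of each pair in the shared bases could not be told apart. Anapc15 was at 1.57 to 2.11 FPKM in HET and 1.83 to 2.05 in WT, below Tomt in each of these libraries, and was not listed in HOM. Als2cl was at 5.14 to 6.59 FPKM in HET and 5.68 to 6.44 in WT, near the level of Tmie, and Sh2d7 at 0.11 to 0.12 in HET and 0.04 to 0.07 in WT; neither was listed in HOM.

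RefSeq promoter windows (GRCm38.p6, 250 bases before to 50 after the start site) were at hand for 5 of the 6 genes, in 6 windows; Tmc2 had none. They are shown because the genes were lower together in the mutant of a transcription factor. Letters searched on both strands were ATTAAT, the core of sites of the POU4 family and its own reverse complement, the longer ATAATTAAT that contains it, the octamer ATGCAAAT and the E-box CANNTG. Capitals mark every match. Printed are both Tomt windows (chr7:101906310-101906609 and chr7:101903736-101904035, - strand), which held the ATTAAT core, and those of Lhfpl5 (chr17:28575469-28575768, + strand) and Tmie (chr9:110880024-110880323, - strand), whose changes in HOM were the largest and smallest of the 6 on the log2(FPKM + 1) scale.
Tomt window 1: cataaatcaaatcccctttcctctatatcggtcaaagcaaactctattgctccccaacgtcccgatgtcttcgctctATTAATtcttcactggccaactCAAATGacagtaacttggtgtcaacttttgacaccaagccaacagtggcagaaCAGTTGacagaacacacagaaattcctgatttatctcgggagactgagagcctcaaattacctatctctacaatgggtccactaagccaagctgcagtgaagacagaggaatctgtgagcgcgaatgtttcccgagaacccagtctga
Tomt window 2: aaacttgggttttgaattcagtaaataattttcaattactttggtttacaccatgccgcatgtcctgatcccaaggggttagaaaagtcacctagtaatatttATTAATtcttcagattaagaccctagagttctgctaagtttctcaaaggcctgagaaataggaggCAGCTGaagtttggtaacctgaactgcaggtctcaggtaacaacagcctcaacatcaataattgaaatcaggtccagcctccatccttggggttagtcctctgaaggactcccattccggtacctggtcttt
Lhfpl5: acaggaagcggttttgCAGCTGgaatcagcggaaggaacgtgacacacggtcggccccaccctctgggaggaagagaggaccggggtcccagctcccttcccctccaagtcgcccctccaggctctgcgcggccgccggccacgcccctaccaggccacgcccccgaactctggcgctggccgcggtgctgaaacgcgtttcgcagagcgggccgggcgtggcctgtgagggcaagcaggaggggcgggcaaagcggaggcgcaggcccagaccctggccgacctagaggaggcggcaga
Tmie: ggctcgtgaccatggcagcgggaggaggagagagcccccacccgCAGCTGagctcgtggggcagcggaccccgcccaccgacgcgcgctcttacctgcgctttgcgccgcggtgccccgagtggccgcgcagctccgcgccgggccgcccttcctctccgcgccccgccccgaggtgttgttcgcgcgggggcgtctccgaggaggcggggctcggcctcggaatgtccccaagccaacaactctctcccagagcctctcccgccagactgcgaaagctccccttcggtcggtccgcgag

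The ATTAAT core began at position -173 in Tomt window 1 and -147 in window 2, counted from the start site. It was in none of the windows of Tmc1, Tmie, Lhfpl5 and Cib2, and 4.75% of all 32851 windows held it. Neither ATAATTAAT (0.274% of all windows) nor ATGCAAAT (1.74%) occurred in the 6 windows. An E-box stood in every window but that of Cib2, and in 72.3% of all windows. Base composition differed between the windows: G and C made up 42% of the bases for Tmc1 and 41.7% and 45.3% for Tomt, against 70.7% to 73.7% for Lhfpl5, Cib2 and Tmie. A match of letters is not a binding site, and a missing match says nothing about the factor.

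Depth recovered from the steps between low FPKM values was 14300000 to 15800000 fragments in HOM, 15500000 to 17400000 in HET and 14600000 to 17000000 in WT. Pou4f3 itself was at 5.92, 1.36 and 9.39 FPKM in HOM 1 to 3, at 21.7 to 25.6 in HET and at 24.5 to 27.0 in WT. Hair cell markers were present in the HET and WT libraries, with all 12 of a fixed list above 1 FPKM in at least 1 of these 6 libraries (summed level 225 to 245 FPKM in HET and 225 to 281 in WT). Of the skeletal muscle markers 4 of 5 stayed under 1 FPKM in all 6, and of the brain markers Neurod2 and Olig2. On the largest axis of variance among HET and WT libraries (58.1%), HET 1 and WT 3 stood away from the rest. Their summed levels of 6 spiral ganglion neuron markers were 79.3 and 83.2 FPKM, against 35.5 to 63.3 in the other 4. The HOM lists hold only genes whose HOM libraries lay apart from all WT libraries (1137 of 1137, 100%). Adjusted p values of HOM comparisons were corrected over listed genes only and are not independent evidence of a difference.

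In HOM cochleae all 6 transcripts were lower than in WT, but by very unequal amounts. The pore genes Tmc1 and Tmc2 were left at 7.03% and 6.02% of the WT mean and Lhfpl5 at 10.2%, whereas Cib2 kept 45.7% and Tmie 77.9%. In HET cochleae 5 of the 6 had ranges that overlapped those of WT. Lhfpl5 was at 79.4% of WT, with each HET library below every WT library, as in 3.12% of the 15391 genes tested. No gene was called in HET against WT, Lhfpl5 included. In these bulk libraries fewer hair cells and less RNA per hair cell cannot be told apart.

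**Figure D1:**
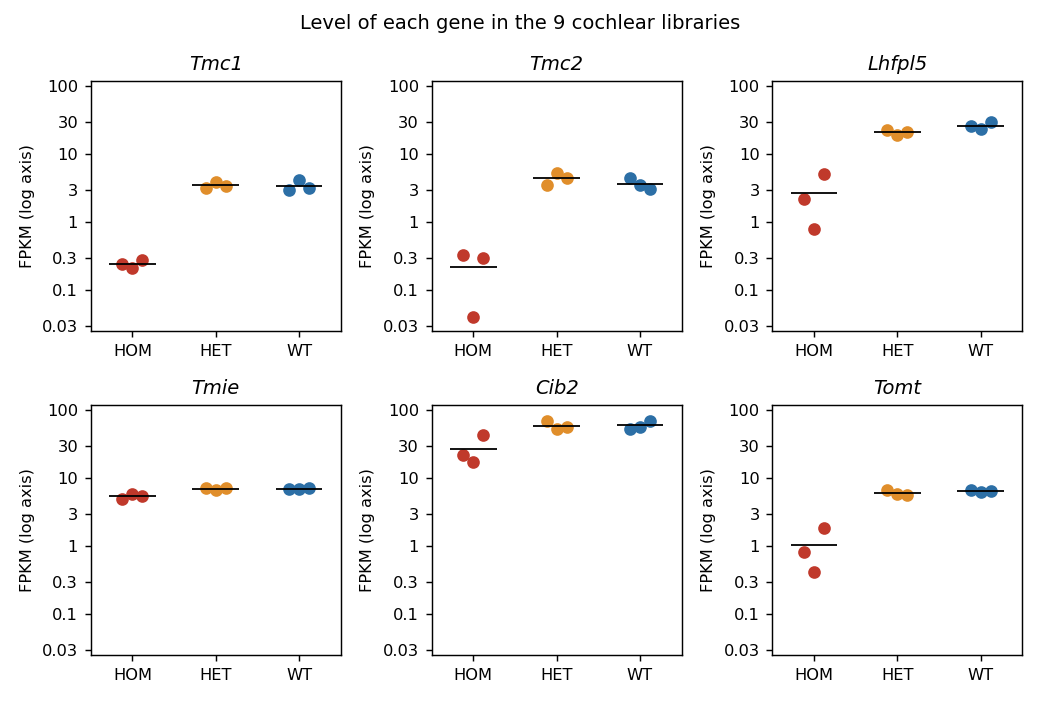
FPKM of the 6 genes in each library on a common log axis, by genotype. Points are libraries and the short lines are group means. The 3 HOM points lie below all HET and WT points in every panel, most widely for Tmc1 and Tmc2 and least for Tmie.

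Tmc1, a pore subunit of the channel, was at 0.24, 0.21 and 0.28 FPKM in HOM 1 to 3, at 3.19, 3.95 and 3.44 in HET and at 3.03, 4.18 and 3.18 in WT. The HOM libraries were low and close together, and the HET and WT ranges overlapped. The 79 fragments recovered from the HOM libraries together, beside 1155 from WT, put the 95% counting interval at 5.54% to 8.86% of the WT level. Tmc1 fell by 1.84 in HOM against WT on the log2(FPKM + 1) scale (SE 0.11, limma adjusted p = 0.000122). This scale understates the change of genes near 1 FPKM. Against HET the change was -1.86 (SE 0.09, limma adjusted p = 6.52e-05).

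Tmc2, the other pore subunit, was at 0.33, 0.04 and 0.30 FPKM in HOM, at 3.60, 5.36 and 4.50 in HET and at 4.48, 3.59 and 3.06 in WT. HOM 2 stood far below the other HOM libraries, with 2 recovered fragments against 15 in each of them. Summed fragments were 32 in HOM, against 562 in WT (95% counting interval 3.98% to 8.39% of the WT level). Tmc2 changed by -1.94 in HOM against WT (SE 0.15, limma adjusted p = 0.000325) and by -2.16 against HET (SE 0.16, adjusted p = 0.000306). Tmc1 and Tmc2 reached 1 FPKM in no HOM library and entered these comparisons through the HET and WT libraries alone.

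The pore pair was compared within libraries, where scaling cancels. The ratio of Tmc2 to Tmc1 FPKM was 1.38, 0.190 and 1.07 in HOM, 1.13, 1.36 and 1.31 in HET and 1.48, 0.859 and 0.962 in WT. The ranges of the 3 genotypes overlapped. Mean differences in log2 ratio were -0.71 for HOM against WT (SE 0.93), -0.95 for HOM against HET (SE 0.90) and 0.24 for HET against WT (SE 0.25). The two-sided exact permutation p values were 0.8, 0.4 and 0.4 (0.8, 0.6 and 0.6 adjusted over the 3), with 0.1 the smallest that 3 against 3 libraries allow. Without HOM 2 the difference between HOM and WT was 0.18, so its sign rests on that library and its 2 Tmc2 fragments.

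**Figure D2:**
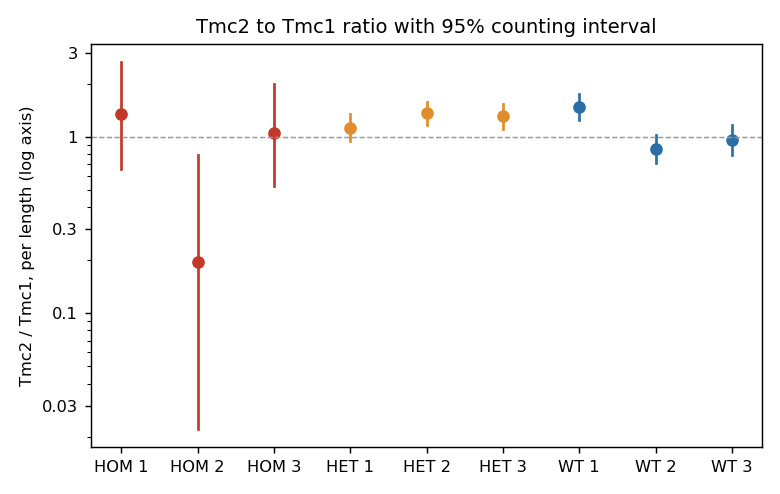
Ratio of Tmc2 to Tmc1 per length in each library on a log axis, computed from whole recovered fragments rather than FPKM, with the exact 95% counting interval as a line. HOM 2 sits at 0.194 with an interval of 0.0222 to 0.787, and the other 8 libraries lie between 0.858 and 1.48.

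Lhfpl5, whose protein joins the tip link to the pore, was at 2.24, 0.79 and 5.09 FPKM in HOM, at 23.07, 19.06 and 21.08 in HET and at 26.17, 23.60 and 29.87 in WT. Each HOM library lay below every HET library and each HET library below every WT library. The HOM libraries spanned 6.44-fold among themselves. In log2(FPKM + 1) Lhfpl5 had the largest fall of the 6 genes, by 3.06 in HOM against WT (SE 0.42, limma adjusted p = 0.00261), the sixth lowest change among 1109 genes. With a pseudocount of 0.1 in place of 1, Tmc2 had the largest fall of the 6 (-3.71, beside -3.58 for Lhfpl5 and -3.37 for Tmc1). With the pseudocount of 1, Lhfpl5 changed by -2.75 against HET (SE 0.41, limma adjusted p = 0.00473). Its HOM mean was 10.2% ± 8.24 of WT (SD, n = 3) and 5.71% without HOM 3.

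Tmie, the membrane subunit that the channel needs to conduct, was at 4.95, 5.77 and 5.52 FPKM in HOM, at 7.21, 6.74 and 7.05 in HET and at 6.80, 6.86 and 7.20 in WT. The HOM libraries lay below all others by a narrow gap, and they kept 77.9% ± 6.04 of the WT mean (SD, n = 3). Tmie fell by 0.31 in HOM against WT (SE 0.06, limma adjusted p = 0.00871) and by 0.32 against HET (SE 0.07, adjusted p = 0.0162). The listed genes as a whole had a median change of -0.22 against WT and -0.16 against HET. Under median-ratio and upper-quartile scaling over the listed genes the change of Tmie against WT was -0.13 and -0.11 and no longer called (adjusted p = 0.140 and 0.190), and likewise -0.18 and -0.11 against HET (0.0818 and 0.243). Leaving out HET 3, or fitting the replicate number as a block, also ended the call against HET (adjusted p = 0.0590 and 0.0629).

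Cib2, the calcium-binding subunit, was the most abundant transcript of the 6, at 22.05, 16.98 and 42.68 FPKM in HOM, 68.73, 52.12 and 55.97 in HET and 52.85, 57.39 and 68.37 in WT. HOM 3 was the highest HOM library by far, and still lay below every HET and WT library. The HOM mean was 45.7% ± 22.9 of WT (SD, n = 3). Cib2 changed by -1.20 in HOM against WT (SE 0.32, limma adjusted p = 0.0171) and by -1.18 against HET (SE 0.32, adjusted p = 0.0272). Removing any single library but HOM 3 ended the call against HET (adjusted p = 0.0516 to 0.0782), and removing HOM 2 and WT 3 together ended that against WT (0.0683). Within both HET and WT the highest Cib2 value was that of HET 1 or WT 3, the libraries with the highest neuron marker sums, and the part of this in Cib2 levels was not tested.

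Tomt, needed for the TMC proteins to reach the bundle, was at 0.81, 0.41 and 1.87 FPKM in HOM, at 6.71, 5.89 and 5.63 in HET and at 6.58, 6.20 and 6.50 in WT. HOM 2 was lowest and HOM 3 highest, both well under the other groups. It changed by -1.93 in HOM against WT (SE 0.25, limma adjusted p = 0.00200) and by -1.86 against HET (SE 0.25, adjusted p = 0.00343). Its HOM mean was 16.03% ± 11.7 of WT (SD, n = 3), and 9.49% without HOM 3. Anapc15, which overlaps 69.3% of the exonic bases of Tomt, was at 1.57 to 2.11 FPKM in HET and WT. If counting ignored strand, its reads would enter the Tomt values, and their part in HOM was not tested.

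All 6 genes were thus called lower in HOM against WT, where 65.4% of the 1109 tested genes were called lower, 93.1% were called in either direction and 69.1% had all HOM libraries below all WT libraries. The lists were made on this contrast, so nothing about the complex is read from that count. Against HET all 6 were called lower with no overlap of the groups, where 36.3% of 1090 genes were called lower, 44.5% were called in either direction and 46.2% had all HOM libraries below all HET libraries. These genes came from the same lists, so nothing about the complex is read from this count either. The 6 genes had a median change of -1.89 against WT and -1.86 against HET, beside -0.22 and -0.16 for all genes tested. The 9 hair cell markers listed in HOM had similar medians, -1.88 against WT and -1.96 against HET. Both comparisons share the HOM libraries. Of the 15391 genes that reached 1 FPKM in 3 or more HET and WT libraries, 7.35% were listed in HOM.

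**Figure D3:**
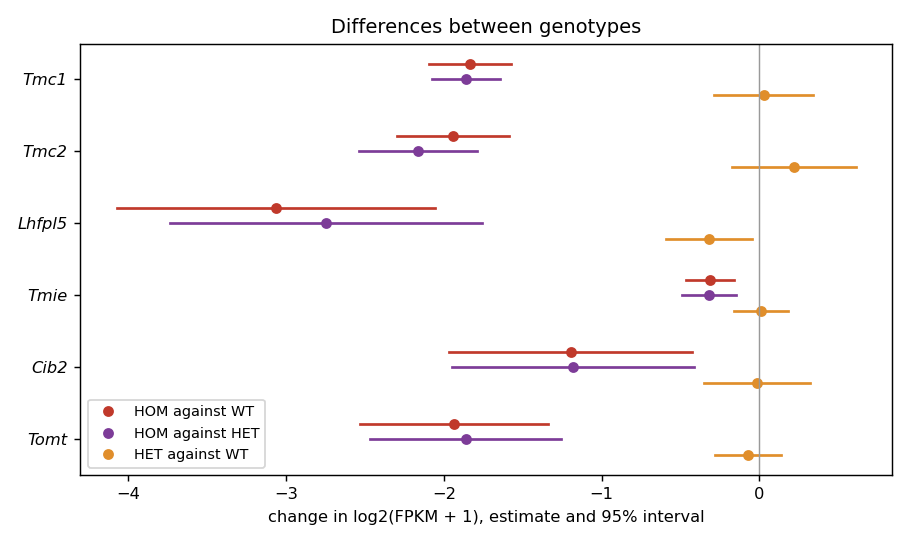
Change in log2(FPKM + 1) of each gene in the 3 comparisons, with limma's 95% interval. HOM intervals lie left of 0 for every gene and run widest for Lhfpl5. HET against WT intervals include 0 except for Lhfpl5, whose unadjusted interval runs from -0.59 to -0.05.

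The members' order by level changed in HOM. In WT the means ran from Cib2 (59.5 ± 7.98 FPKM) over Lhfpl5 (26.5 ± 3.15), Tmie (6.95 ± 0.216), Tomt (6.43 ± 0.200) and Tmc2 (3.71 ± 0.718) to Tmc1 (3.46 ± 0.625; SD, n = 3 each), and HET had the same order. Only Tmc2 and Tmc1 overlapped among neighbours in that order, in HET as in WT. In HOM Tmie (5.41 ± 0.420 FPKM) came second, with Lhfpl5 at 2.71 ± 2.19, Tomt at 1.03 ± 0.754, Tmc1 at 0.243 ± 0.0351 and Tmc2 at 0.223 ± 0.159 (n = 3 each). There the ranges of Tmie and Lhfpl5, of Lhfpl5 and Tomt, and of Tmc1 and Tmc2 overlapped.

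As shares of the summed level of the 6 genes, Cib2 made up 72.9% ± 3.30 in HOM, 58.1% ± 2.65 in HET and 55.7% ± 2.54 in WT (SD, n = 3 each). Tmie made up 16.6% ± 6.98 in HOM, 6.95% ± 0.473 in HET and 6.55% ± 0.394 in WT. Lhfpl5 had 6.57% ± 3.00 in HOM, against 20.9% ± 0.633 in HET and 24.9% ± 1.55 in WT. The pore genes made up the smallest shares in every group. Tmc1 had 0.718% ± 0.191 in HOM, against 3.53% ± 0.703 in HET and 3.28% ± 0.738 in WT. Tmc2 had 0.594% ± 0.459 in HOM, against 4.52% ± 1.28 in HET and 3.53% ± 0.947 in WT. The summed level was 36.9 ± 16.7 FPKM in HOM, 101.1 ± 10.1 in HET and 106.6 ± 10.04 in WT.

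The HOM libraries differed from each other in the same order for most of these genes. HOM 2 was lowest and HOM 3 highest for Tmc1, Lhfpl5, Cib2 and Tomt, as for Pou4f3 and for 7 of 9 listed hair cell markers, Pou4f3 among them. Tmc2 was lowest in HOM 2 but highest in HOM 1, and Tmie was highest in HOM 2. The spread was narrow for Tmc1 (6.06% to 8.08% of WT) and Tmie (71.2% to 82.98%). It was wide for Lhfpl5 (2.98% to 19.2%), Cib2 (28.5% to 71.7%) and Tomt (6.38% to 29.1%). These values come from the same 3 libraries, and this order was noticed after the values were seen.

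**Figure D4:**
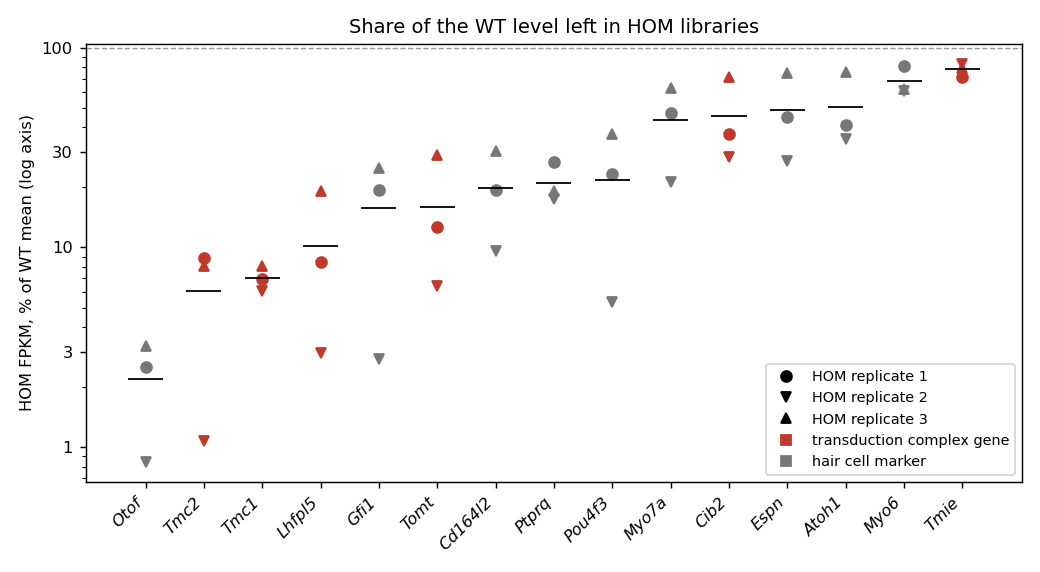
HOM FPKM as a percentage of the WT mean on a log axis, for the 6 complex genes and the 9 hair cell markers listed in HOM, sorted by mean. Symbols are HOM libraries and short lines their means. Tmc1, Tmc2 and Lhfpl5 stand between Otof (2.20%) and Gfi1 (15.7%), and Cib2 between Myo7a (43.6%) and Espn (49.02%).

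The level of each complex gene relative to hair cell genes in the same library depended on the hair cell gene chosen. Each of the 9 listed hair cell markers was used as the denominator in turn, a choice made after the values were seen. Slc17a8, Calb2 and Pvalb, the rest of the 12, were not listed in HOM and could not be used. All 9 denominators were themselves called lower in HOM against WT, so the counts below hold for fallen markers only. For Tmc2 the ratio was lower in all 3 HOM libraries than in any WT library with 8 of the 9 markers and higher with Otof, the gene of the synaptic protein otoferlin. Tmc1 was lower with 6 markers, overlapped WT with Pou4f3 and Gfi1, and was higher with Otof, at 0.276, 0.724 and 0.252 times Otof in HOM, against 0.0882 to 0.124 in WT. Both overlaps came from HOM 2 alone. Tmc1 was at 0.0405, 0.154 and 0.0298 times Pou4f3 in HOM 1 to 3, against 0.118 to 0.171 in WT. Relative to Gfi1 it was at 0.163, 1 and 0.147, against 0.379 to 0.583 in WT. Lhfpl5 was lower with 6, overlapped with Gfi1 and Ptprq and was higher with Otof. Tomt was lower with only 4 (Myo7a, Myo6, Atoh1 and Espn), overlapped with 4 and was higher with Otof. Cib2 was lower with none, overlapped with 5 and was higher with 4 (Pou4f3, Otof, Gfi1 and Cd164l2). Tmie was higher with 8 and overlapped with Myo6. Against HET in place of WT, Tmie was higher with only 6 markers and overlapped with Myo6, Atoh1 and Espn. Tmc2 then overlapped with Otof, and Tomt was lower with 5, Cd164l2 added. The counts for Tmc1, Lhfpl5 and Cib2 were the same against HET.

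With Myo7a, a motor protein gene of the hair bundle, the ratio for Cib2 was 7.40 ± 1.91 in HOM, 6.31 ± 1.83 in HET and 6.76 ± 0.330 in WT (SD, n = 3 each). That for Tmc1 was 0.0739 ± 0.0340 in HOM, 0.371 ± 0.0432 in HET and 0.395 ± 0.0739 in WT. Otof was left at 2.20% of WT in HOM and Myo6 at 68.1%, so the markers themselves span a wide range. Where HOM and WT ranges lay apart the two-sided exact permutation p was 0.1, the smallest possible with n = 3 in each group, and no adjusted p over the 54 ratios was under 0.135.

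In HET against WT no gene of the table was called by limma (0 of 15391, 0%), and 266 (1.73%) had an unadjusted p under 0.05. Among the 6 only Lhfpl5 did (unadjusted p = 0.0284, adjusted p = 1.0), at 21.07 ± 2.01 FPKM in HET and 26.5 ± 3.15 in WT (SD, n = 3 each). Its change was -0.32 (SE 0.11), between -0.40 and -0.23 over all alternatives, and -0.30 without HET 1 and WT 3, a pair left out after the data were seen. Groups that lay apart with HET lower were seen for 3.12% of all genes. The other changes were 0.03 for Tmc1 (95% interval -0.29 to 0.34), 0.22 for Tmc2 (-0.17 to 0.61), 0.01 for Tmie (-0.16 to 0.18), -0.02 for Cib2 (-0.35 to 0.32) and -0.07 for Tomt (-0.28 to 0.14). The signs for Tmc1, Tmie and Cib2 turned when single libraries were left out. The lowest bound of any of the 6 intervals was the -0.59 of Lhfpl5.

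Other genes of the transduction machinery were read from fixed lists. Of 5 genes of the tip link and its anchor, Cdh23, Pcdh15, Ush1c, Ush1g and Myo7a, only Ush1c and Myo7a were listed in HOM. Ush1c, which encodes a scaffold of the upper tip link anchor, was at 53.4, 50.2 and 53.2 FPKM in HOM, 51.7 to 66.6 in HET and 55.96 to 59.02 in WT, a change of -0.14 against WT (SE 0.04, limma adjusted p = 0.0211) and -0.21 against HET (adjusted p = 0.121); the HET 1 value lay within the HOM range. Myo7a was at 4.12, 1.86 and 5.53 FPKM in HOM, 8.16 to 10.7 in HET and 8.02 to 9.58 in WT (-1.10 against WT, adjusted p = 0.0171, and -1.20 against HET, adjusted p = 0.0213). The tip link cadherin genes were at 4.81 to 7.93 FPKM in HET and 4.79 to 7.10 in WT for Cdh23, and at 1.14 to 1.99 in HET and 1.13 to 1.82 in WT for Pcdh15. Ush1g stayed under 1 FPKM in HET and WT.

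Among 15 relatives of the 6 genes, Tmc5 and Lhfpl4 were listed in HOM. Lhfpl4 was at 1.64, 1.15 and 2.31 FPKM in HOM, 2.60 to 2.95 in HET and 2.45 to 3.21 in WT, and fell by 0.52 against WT (SE 0.17, limma adjusted p = 0.0260) and by 0.51 against HET (adjusted p = 0.0418). Tmc5 was at 0.39, 0.07 and 0.74 FPKM in HOM, 1.21 to 1.26 in HET and 0.92 to 1.43 in WT. It fell by 0.71 against HET (SE 0.17, limma adjusted p = 0.0213). Tmc5 reached 1 FPKM in no HOM library and entered that comparison through the HET libraries alone. Against WT it was under the minimum for testing, with WT 2 at 0.92 FPKM. Of 4 other channel genes once linked to hair cell transduction, Piezo1, Piezo2, Mcoln3 and Trpa1, none was listed in HOM. Neither these lists nor the tip link list had a call in HET against WT, where 0 of 15391 genes were called. Only 9 of the 15 relatives and 4 of the 5 tip link genes were tested there, beside the 4 channel genes.

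Markers of other cells moved as follows. The supporting cell genes Epyc, Gjb2 and Gjb6 were listed in HOM and higher, with a summed level of 1192 to 1317 FPKM in HOM, 798 to 1021 in HET and 878 to 985 in WT; the other 5 supporting cell markers were not listed. Of 3 erythroid markers 2 were listed, Hbb-bs and Alas2, summing to 25.7 to 36.2 FPKM in HOM, 35.7 to 77.1 in HET and 67.6 to 81.1 in WT. No marker of spiral ganglion neurons, glia, muscle, bone or brain was listed. The part of these markers in the levels of the 6 genes was not tested.

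Profiles most like each gene were ranked by the root mean square difference of centred log2(FPKM + 1) over the 9 libraries, among 1096 listed genes. Tmc1 was nearest to Vinac1 (0.14), Apba1 (0.15) and Trim45 (0.17), and Tmc2 to Trim36 (0.16), Vinac1 (0.18) and Pkhd1l1 (0.21). Nearest to Lhfpl5 were Chrna10 (0.14), Grxcr1 (0.14) and Rasd2 (0.31). Tmie lay close to Plppr5 (0.05), Pfkfb4 (0.05) and Wdr12 (0.06), whose HOM values were also moderately below WT. Cib2 was nearest to Insc (0.07), which was at 1.88, 1.29 and 4.73 FPKM in HOM, 5.62 to 8.15 in HET and 5.61 to 8.49 in WT, then to Msc (0.16) and Clec18a (0.17). Tomt was nearest to Strc (0.13), Klhdc7b (0.13) and Lrrc10b (0.14). The libraries share depth and scaling across genes, and no test was made of these likenesses.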

How the data were processed

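Gene expression was measured by RNA-seq in 9 mouse cochlear libraries at postnatal day 3. Per the labels' protocols, total RNA underwent poly(A) isolation or rRNA removal, without saying which, then fragmentation and random priming. The deposited values are FPKM per library, per the file headers, rounded to 2 decimals. The submitters' processing notes name DESeq2 and the build mm8; aligner, counter and annotation were not given in the sources used here. Of 51912 identifiers 51719 had an exon length in GENCODE M21 on GRCm38, whose coordinates are printed.

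Groups were compared with limma 3.58.1 (R 4.3.3) on log2(FPKM + 1), with a mean-variance trend. A gene entered a comparison when 3 or more of its 6 libraries reached 1 FPKM. Adjusted p values are Benjamini-Hochberg over all genes tested in a comparison, called under 0.05. The fit was run on simulated data. Changes were placed there only in genes with a higher mean log2(FPKM + 1) than Tmc1, Tmc2 and Tomt had in the HOM comparisons. The simulation therefore does not cover genes at the level of these. Ratios were compared with exact permutation tests (SciPy 1.17.1). Nothing says that libraries came from separate animals, so p values measure the spread between libraries. Depth was recovered as the fragment number that made low values of genes with up to 600 exonic bases whole; 99.1% to 100% were whole within 0.1. Only 18 to 20 such values were at hand in each HOM library. The 95% counting intervals are exact and cover counting error only. Genes named are the 6 members, Pou4f3, the fixed lists and the 3 nearest profiles of each. Members and lists were chosen with earlier results of these data known. Alternatives were pseudocount, minimum, scaling, replicate block, trend, a fit of all groups, and leaving out libraries.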

Additional observations from a re-analysis of the deposited data

How the results depend on the processing

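All 6 genes kept the direction of their fall in HOM against WT and HET under every alternative run. Their HOM libraries all lay below every WT and HET library, so among these alternatives only the scalings could have turned a sign. The number called stayed 6 of 6 against WT when any 1 library was left out and ranged from 4 to 6 against HET; both scalings removed Tmie. A pseudocount of 0.1 moved the changes in HOM against WT to -3.37 for Tmc1, -3.71 for Tmc2, -2.75 for Tomt and -3.58 for Lhfpl5, and those against HET to -3.40, -3.97, -2.67 and -3.26 for the same genes, with all 6 called in both. In HET against WT the number called was 0 throughout. There the sign turned when single libraries were left out for Tmc1 (-0.043 to 0.14; negative without HET 2, WT 1 or WT 3), Tmie (-0.011 to 0.032; negative without HET 1 or WT 1) and Cib2 (-0.13 to 0.086; positive without HET 2, HET 3 or WT 3). The difference in Tmc2 to Tmc1 ratio between HOM and WT ranged from -1.24 to 0.18 over single libraries left out.

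Scaling moved the share of WT kept in HOM to 8.21% (median-ratio) and 8.40% (upper-quartile) for Tmc1, and to 91.1% and 93.3% for Tmie; it was computed over listed genes, most of them lower in HOM. Over the whole table the calls in HOM against WT were 1032, and 655 under median-ratio, 638 under upper-quartile scaling and 610 without HOM 2 and WT 3, a pair chosen after seeing the data (689 to 864 with 1 library left out). Those in HOM against HET were 485, and 304 with a replicate block (242 to 508 with 1 library left out, the lowest without HET 3, and 255 without HET 2). Those in HET against WT were 0, and 5 of 1131 listed genes in the fit of all 3 groups (0 to 1 with 1 library left out). The cause was not tested.

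Same-numbered libraries did not correlate above 0.1 in every pair of any comparison: the correlations of their deviations were 0.247, 0.0941 and 0.275 in HOM and WT, -0.324, 0.0886 and -0.158 in HOM and HET, and -0.519, 0.286 and -0.471 in HET and WT. All 3 were positive in HOM and WT, but 1 stayed under 0.1, so the numbers were not taken to pair the libraries. Each HOM library did correlate more with the WT library of its number than with the others (-0.293 to 0.105). With the replicate block 6 genes of the complex were called against WT and 5 against HET, where Tmie was not (adjusted p = 0.0629). Depth limits the pore genes most, with 2 Tmc2 fragments in HOM 2.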
